A study of Mus musculus with 8 samples.

Results

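Interferon-stimulated genes are the genes that cells switch on when interferon binds its receptor. The gene list held 37 of them, chosen by name with earlier results of these data known. Of these, 35 were measured among the 18820 genes of the arrays. The other members were Igtp, whose probe set also carries the symbol Irgm2, and Ifi44. Neither had a probe set with that single symbol in the annotation used, and they were not analysed here.

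The tissue was epididymal white fat, the visceral pad beside the testis, from male mice of strain C57BL/6. Both groups of mice ate a diet with 45% of its energy as fat during 16 weeks, after a run-in of 2 weeks on a diet with 10%. The 4 arrays of the WT group came from wild-type mice bought from a commercial breeder. The 4 arrays of the IL37TG group came from transgenic mice that overexpress human interleukin-37 (IL-37), a cytokine known to restrain innate inflammation. The promoter that drives the transgene and the age of the mice are not recorded in the labels. The WT mice were bought and are not described as littermates of the transgenic mice. A difference of source between the groups cannot be told apart from the transgene. Replicates are numbered there, with no word on whether each came from its own animal, so a p-value here covers the spread among these arrays, which may be technical. The human transgene itself was not analysed here, so the labels were not checked against it.

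Type I interferons signal through the receptor chains Ifnar1 and Ifnar2 and the kinases Jak1 and Tyk2 to a complex that holds Stat2 and Irf9. That complex binds the interferon-stimulated response element in promoters such as those of the Ifit, Oas and Mx genes. Interferon-gamma, made by T cells and natural killer cells, signals through Ifngr1 and Ifngr2, acts on promoters with the gamma-activated sequence and drives Irf1, guanylate-binding proteins and Cxcl9. In obese fat, macrophages, lymphocytes and fat cells can all express such genes.

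Values are log2 levels, in which 1 unit is a 2-fold step, and all differences are IL37TG minus WT. A gene passed when its limma p, adjusted by Benjamini-Hochberg over all 18820 genes, was at most 0.05. The arrays were alike in overall brightness, with medians from 5.97 to 6.04, and correlated across genes at 0.980 to 0.996 within groups. The number of arrays limits the precision. Fat cell genes were bright in every array, with a mean of 10 adipocyte markers of 11.91 to 12.04 in WT and 12.10 to 12.17 in IL37TG. IL37TG replicate 4 stood apart in sperm genes, with Prm1 at 11.97 against 4.79 to 7.64 in the other 7 arrays and Tnp1 at 7.86 against 4.45 to 4.85. WT replicate 3 and IL37TG replicate 3 stood apart in B cell markers, as given below. Values without these arrays are given beside the main results.

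Interferon-stimulated genes as a class were not shifted far in IL37TG fat. Zbp1, a sensor of left-handed nucleic acids that can trigger necroptosis, was the 1 member of 35 that fell, where 1.27% of all genes fell. No member rose, where 2.07% of all genes rose (limma, adjusted p at most 0.05). At an unadjusted p of 0.05, 7 members were lower, against 9.42% of all genes, and 3 were higher, against 11.2%. The groups did not overlap, with all IL37TG arrays below all WT arrays, for Zbp1, Stat2 and Cxcl10, where this held for 5.73% of all genes. The opposite held for no member and for 8.24% of all genes.

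Of the 35 members 23 had a difference below 0, against 44.7% of all genes, and the median difference was -0.09 beside a median of 0.02 over all genes. With 1 array left out, the median over members was -0.04 without WT replicate 3, -0.05 without IL37TG replicate 1, -0.14 without IL37TG replicate 3 and -0.08 without IL37TG replicate 4. It was -0.09 without both arrays numbered 3. The arrays' names carry a letter and a number, read here as plate row and column. The labels do not say what they stand for, so this reading is an assumption. Row F held WT arrays alone and row H IL37TG arrays alone, so row and group largely cannot be told apart. In row G, the 1 row with both groups, IL37TG replicate 1 stood against WT replicates 3 and 4. There the members' median was -0.17, beside 0.04 over all genes. Every value within row G, and every difference with the row as a block, thus rests on 1 IL37TG array. Each column held 1 or 2 arrays of each group. Only Cxcl10 differed by at least 2-fold, a size reached by 1.41% of all genes. For the other 34 members the 95% interval of the difference lay within 2-fold either way, as it did for 92.2% of all genes. The counts and medians describe these members and were not tested as a group.

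**Figure D1:**
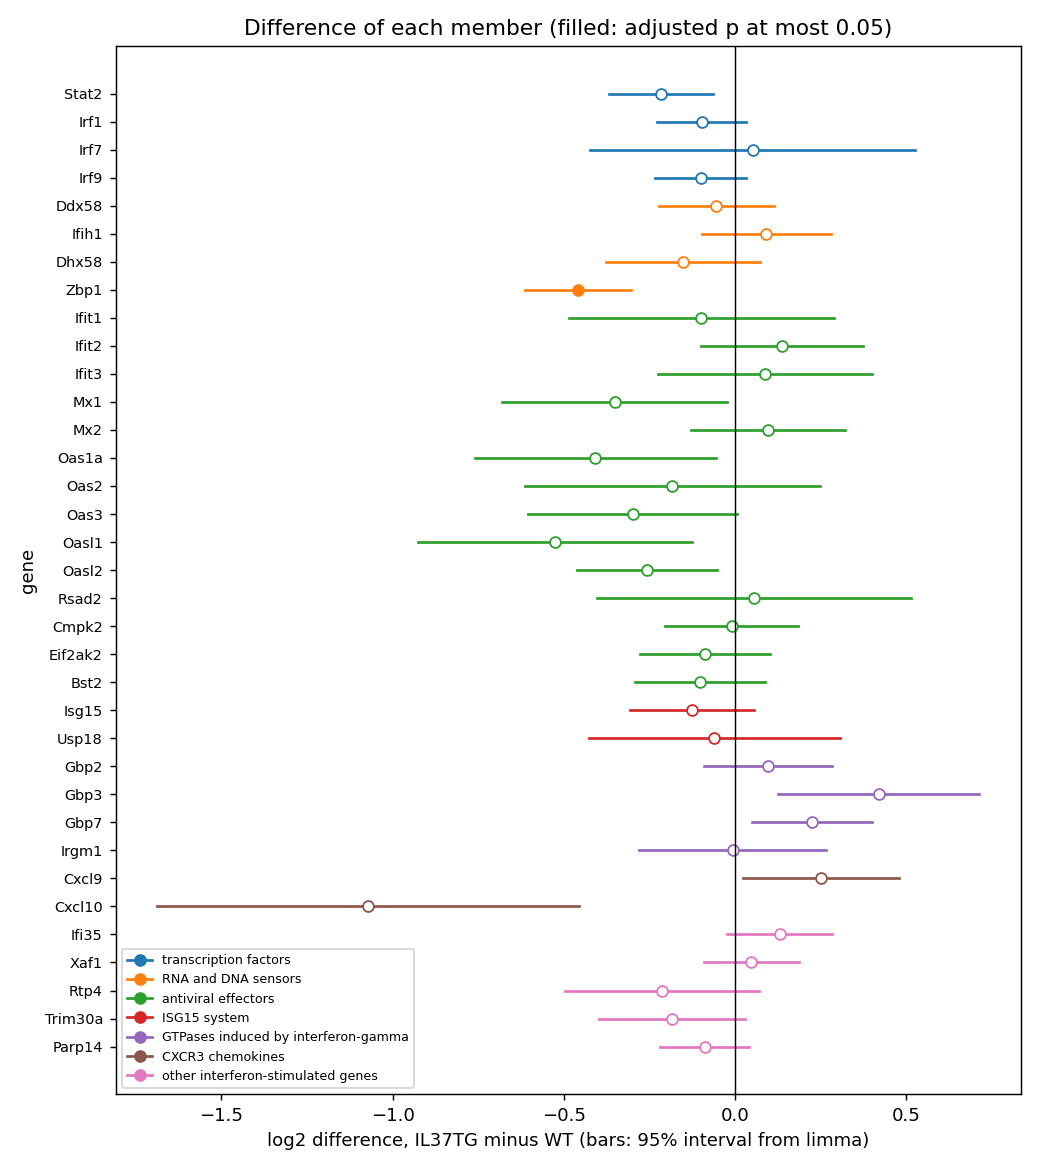
Log2 difference (horizontal axis, IL37TG minus WT) of each of the 35 measured members (vertical axis), with 95% intervals from limma and colours for roles. Zbp1 is the filled point past the threshold, at -0.46, and Cxcl10 lies farthest from 0, at -1.07 with an interval from -1.69 to -0.46.

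The promoter windows show what the members share in sequence. RefSeq windows of 300 bases (250 before and 50 after the transcription start, build GRCm38.p6) were at hand for 29 of the 37 members. They were searched on both strands for the core of the response element, GAAA and GAAA with 2 bases of any kind between them, and for the core of the gamma-activated sequence, TTCNNNGAA. No window was at hand for Zbp1, Dhx58, Mx1, Mx2, Oas2, Parp14, Rtp4 and Usp18. Matches of the same or the other motif may overlap. The response element core was present for 18 of the 29 members (62.1%), where 3.99% of all 27025 genes and 3.44% of all 32851 windows held it. The gamma-activated core was present for 8 members (27.6%), where 9.55% of genes and 8.30% of windows held it.

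The 5 windows below were chosen because their genes cover the range of differences described next: Cxcl10 and Oas1a (lower in IL37TG), Gbp3 and Cxcl9 (higher) and Ifit1 (near 0). Capitals mark the motif matches, read 5′ to 3′ in the direction of the gene. The windows are chr5:92348840-92349139 on the minus strand for Cxcl10, chr5:92328030-92328329 on the minus strand for Cxcl9, chr3:142559794-142560093 on the plus strand for Gbp3 (the upstream of its 2 windows), chr19:34640639-34640938 on the plus strand for Ifit1 and chr5:120907476-120907775 on the minus strand for Oas1a.
Cxcl10: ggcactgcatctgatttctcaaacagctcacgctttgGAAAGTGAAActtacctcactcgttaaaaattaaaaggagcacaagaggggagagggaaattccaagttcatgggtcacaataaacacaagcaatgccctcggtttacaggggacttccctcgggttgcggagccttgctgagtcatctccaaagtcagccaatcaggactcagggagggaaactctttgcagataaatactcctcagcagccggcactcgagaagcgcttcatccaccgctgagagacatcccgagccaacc
Oas1a: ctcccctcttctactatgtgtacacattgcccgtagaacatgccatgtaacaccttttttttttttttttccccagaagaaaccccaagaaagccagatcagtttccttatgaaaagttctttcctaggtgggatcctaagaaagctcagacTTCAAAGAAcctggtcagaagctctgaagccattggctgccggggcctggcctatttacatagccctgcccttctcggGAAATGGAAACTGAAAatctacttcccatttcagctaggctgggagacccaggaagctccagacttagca
Gbp3: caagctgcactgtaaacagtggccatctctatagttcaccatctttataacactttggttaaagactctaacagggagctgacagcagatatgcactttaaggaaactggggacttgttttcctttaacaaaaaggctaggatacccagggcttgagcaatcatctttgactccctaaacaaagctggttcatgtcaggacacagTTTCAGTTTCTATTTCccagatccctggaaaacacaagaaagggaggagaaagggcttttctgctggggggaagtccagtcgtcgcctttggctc
Cxcl9: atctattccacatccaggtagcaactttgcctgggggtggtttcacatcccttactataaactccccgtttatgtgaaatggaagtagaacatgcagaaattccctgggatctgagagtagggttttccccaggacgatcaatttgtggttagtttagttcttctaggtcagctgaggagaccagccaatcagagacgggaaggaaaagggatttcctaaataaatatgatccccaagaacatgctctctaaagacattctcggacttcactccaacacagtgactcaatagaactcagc
Ifit1: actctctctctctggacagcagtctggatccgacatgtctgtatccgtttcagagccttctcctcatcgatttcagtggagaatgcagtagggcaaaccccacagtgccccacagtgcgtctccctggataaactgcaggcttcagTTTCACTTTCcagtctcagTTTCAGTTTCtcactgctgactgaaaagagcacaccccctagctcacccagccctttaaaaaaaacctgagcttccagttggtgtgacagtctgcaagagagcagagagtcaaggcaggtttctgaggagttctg

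The Cxcl10 window held 1 response element core, GAAAGTGAAA, starting 213 bases before the start, while the window of its neighbour Cxcl9 held neither core. In Gbp3 TTTCAGTTTC and TTTCTATTTC, the core read on the other strand, overlapped from 45 bases before the start. Ifit1 had TTTCACTTTC and TTTCAGTTTC 104 and 85 bases before the start. In Oas1a the matches were GAAATGGAAA and GAAACTGAAA 20 and 14 bases before the start, and a gamma-activated match, TTCAAAGAA, 98 bases before it.

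The 17 measured members with the core had a median difference of -0.09 and ran from -1.07 (Cxcl10) to 0.42 (Gbp3). The 10 members without it had a median of 0.02 and ran from -0.52 (Oasl1) to 0.25 (Cxcl9). The difference between these sets was not tested. A match describes the letters of a window and does not show that a factor binds there.

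Among the transcription factors of the response, Stat2 was lower without passing. Its levels were 8.39, 8.36, 8.38 and 8.22 in WT replicates 1 to 4 and 8.21, 8.03, 8.18 and 8.06 in IL37TG replicates 1 to 4. The groups did not overlap, but WT replicate 4 lay just above IL37TG replicate 1. The difference was -0.21 (SE 0.07, limma adjusted p = 0.118), and -0.09 within row G.

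Irf9, the partner that gives the complex its DNA contact, differed by -0.10 (SE 0.06), and Irf1, the interferon-gamma-induced factor, by -0.10 (SE 0.06) on the probe set with the higher mean. The other probe set of Irf1 differed by 0.18. Irf7, the factor that amplifies interferon-alpha production, differed by 0.05 with an interval from -0.42 to 0.53. Its levels were 7.43, 7.44, 7.92 and 7.50 in WT replicates 1 to 4 and 7.23, 7.50, 8.20 and 7.58 in IL37TG replicates 1 to 4. In each group the array numbered 3 was highest and the groups overlapped fully.

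Among the nucleic acid sensors, Zbp1 separated the groups most clearly. Its levels were 7.31, 7.54, 7.27 and 7.38 in WT replicates 1 to 4, and 6.89, 6.89, 6.97 and 6.93 in IL37TG replicates 1 to 4. The IL37TG arrays spanned 0.08 and all lay below the lowest WT array. The fall was 0.46 on the log2 scale or 1.37-fold (SE 0.07, 95% interval -0.61 to -0.30, limma adjusted p = 0.0180). The 3 RNA helicases that sense viral RNA did not pass. Ddx58 (RIG-I) differed by -0.05 (SE 0.07), Ifih1 (MDA5) by 0.09 (SE 0.08) and Dhx58 (LGP2) by -0.15 (SE 0.10).

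The Zbp1 call was close to what single arrays could decide. The adjusted p was 0.0535 without WT replicate 1, 0.0688 without WT replicate 4, 0.0523 without IL37TG replicate 1 and 0.0568 without IL37TG replicate 2, with differences from -0.49 to -0.41 over all 8 removals. The adjusted p was 0.0451 without IL37TG replicate 4, the array with the sperm genes. Zbp1 differed by -0.39, -0.38 and -0.63 within columns 5, 7 and 9 and by -0.44 within row G. The call ended with the column (adjusted p = 0.0607) or the row (adjusted p = 0.266) as a block.

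Markers of macrophages moved with Zbp1. All 21 macrophage markers had a difference below 0 (median -0.59), and Fcgr1 and Cx3cr1 fell. Their summed level, as log2, was 14.34 to 15.19 in WT and 14.04 to 14.44 in IL37TG. In bulk tissue, fewer cells of a type and less RNA per cell cannot be told apart. WT replicate 3 had a mean macrophage marker level of 9.29, inside the IL37TG range of 8.93 to 9.35, and its Zbp1 level of 7.27 was above every IL37TG array. The part of macrophages in the differences of Zbp1 and of the other members was not tested.

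The 2 CXCR3 chemokines among the members, which draw activated T cells, pointed in opposite directions. Cxcl11, another CXCR3 chemokine outside the members, differed by 0.31 (SE 0.13, limma adjusted p = 0.248) at a mean level of 5.08. Cxcl10, which answers both interferon types and inflammatory signals, had levels of 8.01, 7.96, 7.96 and 8.34 in WT replicates 1 to 4 and 7.82, 7.03, 6.48 and 6.66 in IL37TG replicates 1 to 4. The groups did not overlap, although IL37TG replicate 1 came close to the WT arrays and the IL37TG arrays spread over 1.33 units. The difference was -1.07, or 2.10-fold lower (SE 0.27, limma adjusted p = 0.0722), and did not pass. It passed without IL37TG replicate 1, at -1.35 (adjusted p = 0.0194). Leaving out that array, the highest of its group, could only widen the difference. Without IL37TG replicate 4 the difference was -0.96 (adjusted p = 0.145). Within row G the difference was -0.33, and within columns 5, 7 and 9 it was -0.93, -1.69 and -0.72.

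Cxcl9, which depends mainly on interferon-gamma, had levels of 10.20, 10.03, 10.40 and 10.00 in WT replicates 1 to 4 and 10.47, 10.42, 10.27 and 10.48 in IL37TG replicates 1 to 4. WT replicate 3 lay among the IL37TG arrays. The difference was 0.25 (SE 0.10, limma adjusted p = 0.202). Relative to the WT mean, the log2 ratio of Cxcl10 to Cxcl9 within an array was -0.10, 0.02, -0.35 and 0.43 in WT and -0.56, -1.30, -1.70 and -1.73 in IL37TG. It was lower in each IL37TG array than in any WT array, by 1.32 on average (exact permutation p = 0.0286, two-sided). This is the smallest p that 4 against 4 arrays allow, and the ratio was chosen after its values were seen. The mean change of the ratio ran from -1.58 to -1.18 with 1 array left out and was -0.60 within row G. The p missed the threshold with any 1 WT array left out, although each IL37TG array still lay below every remaining WT array.

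**Figure D2:**
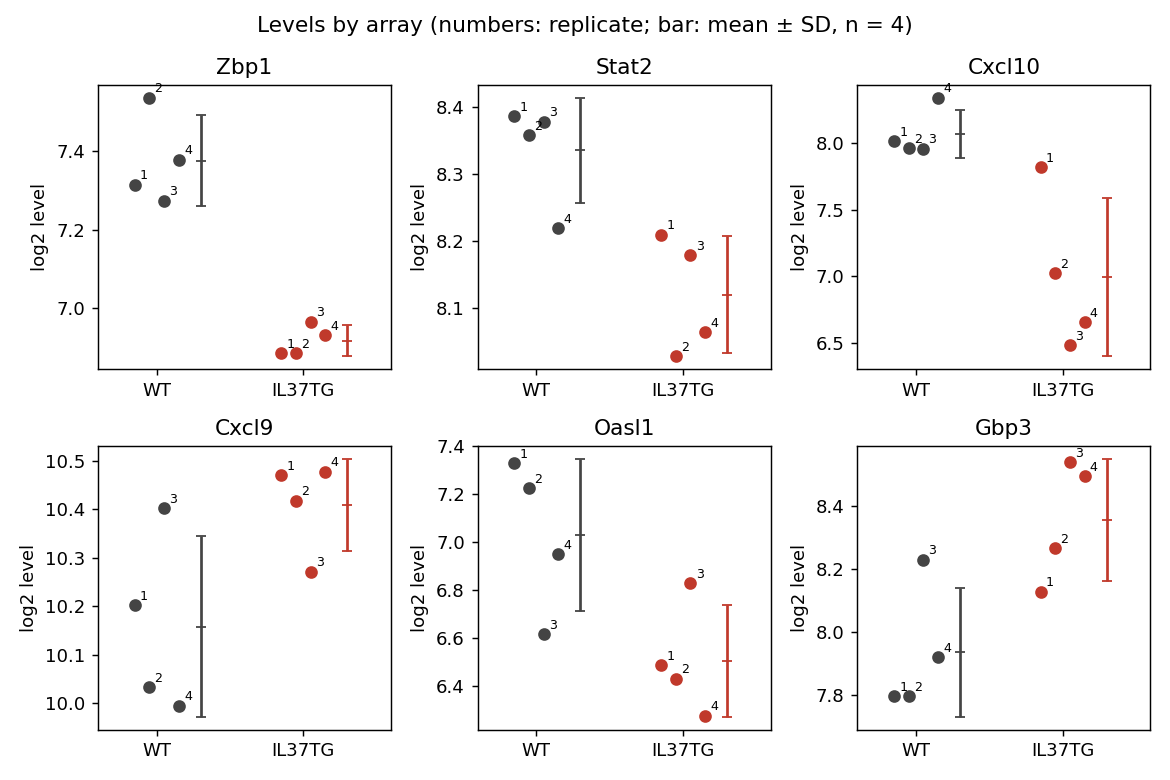
Log2 levels (vertical axes, which do not start at 0) of 6 members in the 4 WT and 4 IL37TG arrays, with replicate numbers and mean ± SD. Zbp1, Stat2 and Cxcl10 separate the groups downwards, while Cxcl9, Oasl1 and Gbp3 each have WT replicate 3 inside the IL37TG range.

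The guanylate-binding proteins, GTPases that interferon-gamma induces to attack pathogens inside cells, had 3 measured members, and none passed. Gbp3 had levels of 7.80, 7.80, 8.23 and 7.92 in WT replicates 1 to 4 and 8.13, 8.26, 8.54 and 8.49 in IL37TG replicates 1 to 4. The groups overlapped through WT replicate 3 alone, which lay above IL37TG replicate 1. The difference was 0.42 (SE 0.13, limma adjusted p = 0.115), and 0.05 within row G. Without WT replicate 3, the highest of its group, Gbp3 passed at 0.52 (adjusted p = 0.0388).

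Gbp7 had levels of 9.41, 9.34, 9.57 and 9.42 in WT replicates 1 to 4 and 9.64, 9.56, 9.82 and 9.62 in IL37TG replicates 1 to 4. The overlap was again WT replicate 3, which lay just above IL37TG replicate 2. The difference was 0.22 (SE 0.08, limma adjusted p = 0.148). Gbp2, whose levels were 9.65, 9.92, 9.94 and 9.91 in WT and 10.02, 9.95, 9.83 and 10.01 in IL37TG, differed by 0.10 (SE 0.08), with IL37TG replicate 3 inside the WT range. Irgm1, an immunity-related GTPase that controls autophagy, differed by -0.01 with an interval from -0.28 to 0.27.

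The 5 members of the OAS family, whose classic enzymes make the oligoadenylates that activate RNase L, all had differences below 0, and none passed. Their median difference was -0.30. The family was not lower throughout: outside the members, Oas1b differed by 0.09 (SE 0.09) and Oas1c by 0.14 (SE 0.15). Oasl1, known in mice as a brake on Irf7 translation, had levels of 7.33, 7.22, 6.61 and 6.95 in WT replicates 1 to 4 and 6.48, 6.43, 6.83 and 6.27 in IL37TG replicates 1 to 4. The difference was -0.52 (SE 0.17, limma adjusted p = 0.141), and the groups overlapped through both arrays numbered 3.

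Oas1a had levels of 6.62, 6.88, 6.11 and 6.77 in WT replicates 1 to 4 and 6.19, 6.18, 6.11 and 6.27 in IL37TG replicates 1 to 4. WT replicate 3 lay near the bottom of the IL37TG range, and the difference was -0.41 (SE 0.15, limma adjusted p = 0.183). Probes for Oas1a may also read its near-identical relatives. Oasl2 differed by -0.26 (SE 0.09), Oas2 by -0.18 (SE 0.19) and Oas3 by -0.30 (SE 0.13). Oas3 levels were 5.36, 5.40, 5.27 and 5.40 in WT and 4.96, 5.002, 5.47 and 4.80 in IL37TG, so that IL37TG replicate 3 lay above every WT array.

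Single arrays decided which OAS genes passed. Without WT replicate 3, Oasl1 (-0.66) and Oas1a (-0.57) passed, and without IL37TG replicate 3, Oas3 (-0.43) passed. Without both arrays numbered 3, a removal chosen after the data were seen, Oasl1 (-0.77), Oas1a (-0.54) and Oas3 (-0.46) fell beside Zbp1, and Cxcl9 rose (0.38). For Oasl1, Oas3 and Cxcl9 both removed arrays held the values nearest the other group, and for Oas1a that of WT replicate 3 did, so wider differences had to follow.

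None of the 3 IFIT genes, whose proteins bind foreign RNA, passed. Ifit1 had levels of 7.46, 7.69, 7.93 and 7.52 in WT replicates 1 to 4 and 7.25, 7.56, 7.99 and 7.41 in IL37TG replicates 1 to 4. The groups overlapped fully, with the array numbered 3 highest in each. The difference was -0.10 with an interval from -0.49 to 0.29. Ifit2 differed by 0.14 (-0.10 to 0.37) and Ifit3, whose probes may also read Ifit3b, by 0.09 (-0.23 to 0.40). Within row G, where WT replicate 3 was 1 of 2 WT arrays, the differences were -0.48 for Ifit1, -0.08 for Ifit2 and -0.29 for Ifit3.

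Ifit2 had levels of 7.38, 7.42, 7.59 and 7.27 in WT and 7.36, 7.57, 7.78 and 7.51 in IL37TG, which overlapped. Rsad2 (viperin) differed by 0.06 (-0.40 to 0.52), and by -0.48 within row G, and its neighbour Cmpk2, a nucleotide kinase, by -0.01 (-0.20 to 0.19). Eif2ak2 (the kinase PKR) differed by -0.09 (SE 0.08) and Bst2 (tetherin, which holds virions on the cell) by -0.10 (SE 0.08), and both by -0.30 within row G.

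Mx1 had levels of 5.02, 5.04, 5.16 and 5.18 in WT replicates 1 to 4 and 4.71, 4.79, 5.12 and 4.37 in IL37TG replicates 1 to 4. It encodes an antiviral GTPase that is defective in most laboratory strains, C57BL/6 among them. IL37TG replicate 3 lay inside the WT range. The difference was -0.35 (SE 0.14, limma adjusted p = 0.216), and that of Mx2 was 0.10 (SE 0.10).

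The ISG15 system couples a ubiquitin-like tag to proteins and removes it again. Isg15, the tag, had a dim probe set, with levels of 4.74, 4.69, 4.82 and 4.72 in WT and 4.44, 4.67, 4.79 and 4.58 in IL37TG. These lie near 4.49, the 25th percentile of gene means, so that a difference may be understated. It differed by -0.13 (SE 0.08, limma adjusted p = 0.409). Usp18, the protease that removes the tag and also blocks the interferon receptor, differed by -0.06 with an interval from -0.43 to 0.31.

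The remaining members had small differences of either sign. Trim30a, known to restrain NF-kappaB signalling, had levels of 9.82, 9.93, 9.73 and 9.78 in WT and 9.61, 9.72, 9.80 and 9.40 in IL37TG. IL37TG replicate 3 lay inside the WT range, and the difference was -0.18 (SE 0.09). Rtp4 differed by -0.21 (SE 0.12), Parp14, a mono-ADP-ribosyltransferase, by -0.09 (SE 0.06), Ifi35 by 0.13 (SE 0.07) and Xaf1, an antagonist of the apoptosis inhibitor XIAP, by 0.05 (SE 0.06).

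**Figure D3:**
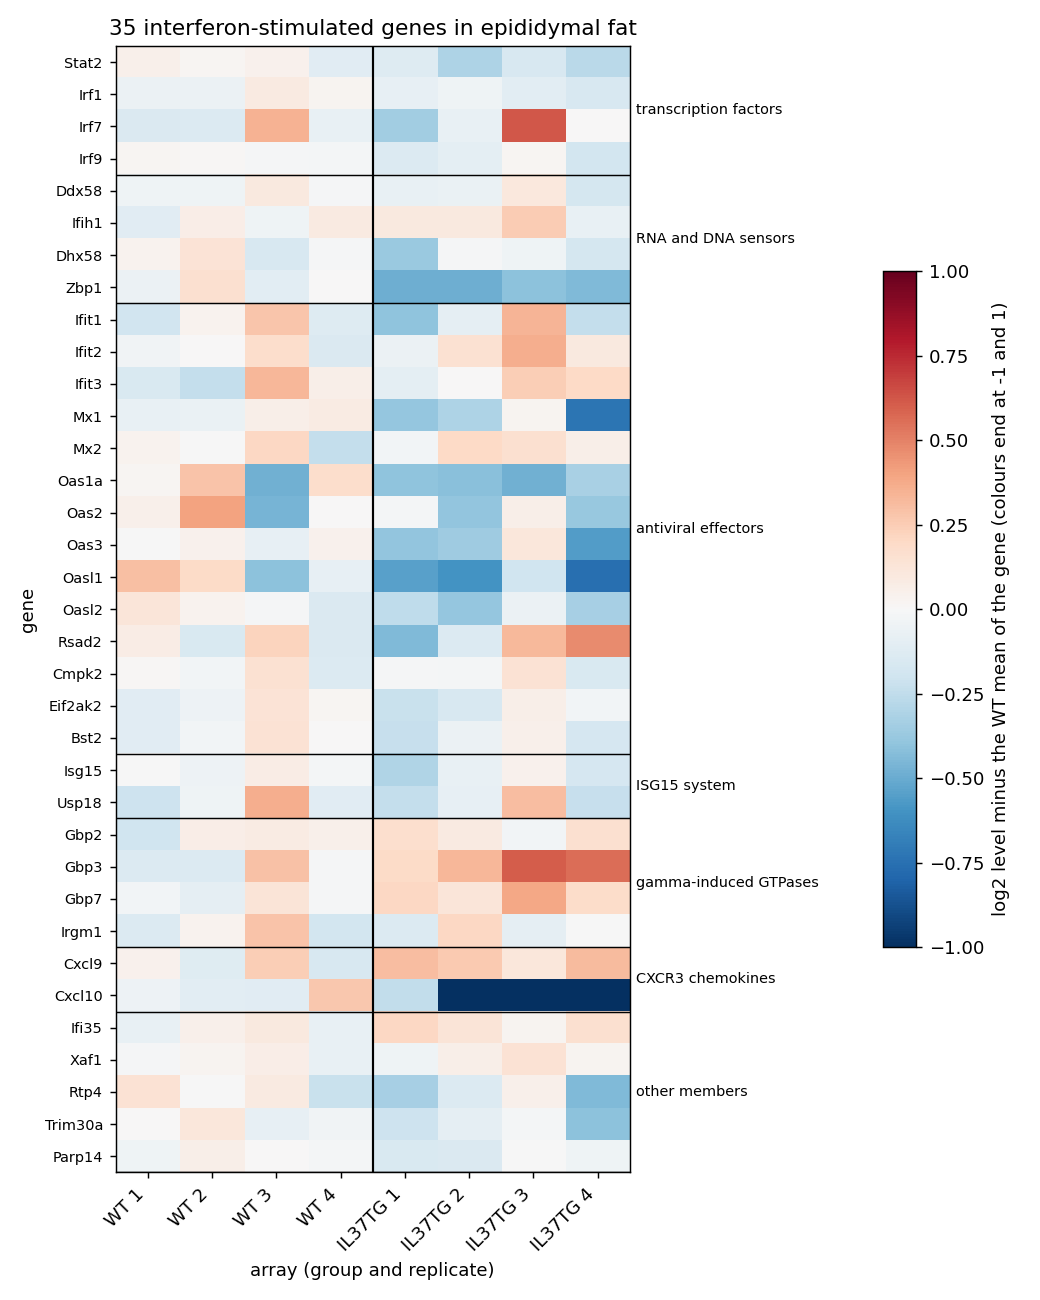
Log2 level of each member (rows, by role) in each array (columns), minus that gene's WT mean. Zbp1 and Cxcl10 are lower across the IL37TG arrays, while Irf7, Ifit1, Ifit3 and Usp18 are highest of the WT arrays in WT 3 and of the IL37TG arrays in IL37TG 3.

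Much of the members' spread lay between arrays of 1 group rather than between the groups. WT replicate 3 was the highest WT array for 20 of the 35 members, where it was highest for 28.5% of all genes. IL37TG replicate 3 was the highest IL37TG array for 24 members, against 26.0% of all genes. Both held for 13 members (37.1%) and for 7.74% of all genes. The 13 were Irf7, Ddx58, Ifit1, Ifit2, Ifit3, Cmpk2, Eif2ak2, Bst2, Isg15, Usp18, Gbp3, Gbp7 and Xaf1.

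The family means showed the pattern only in part. The mean IFIT level relative to WT was 0.26 in WT replicate 3 and 0.32 in IL37TG replicate 3, and between -0.19 and 0.02 in the other 6 arrays. The OAS mean went the other way in WT replicate 3, at -0.29, the lowest of the WT group, whereas IL37TG replicate 3, at -0.11, was the highest of its group. The GBP mean was 0.17 in WT replicate 3, against -0.12 to 0.01 in the other WT arrays. In IL37TG replicate 3 it was 0.32, close to 0.30 in IL37TG replicate 4, with 0.19 and 0.18 in IL37TG replicates 1 and 2.

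Mean levels of some other cell type markers moved with these arrays, though single markers of a list could differ. The 5 measured B cell markers averaged 7.11 in WT replicate 3 and 7.04 in IL37TG replicate 3, against 5.79 to 6.49 in the other arrays. Their summed level, as log2, was 8.38 to 9.86 in WT and 8.74 to 9.75 in IL37TG, and none of the 5 passed between groups. The T cell mean was highest in WT replicate 3, at 6.41 against 5.97 to 6.24 elsewhere, but was 6.05 in IL37TG replicate 3. Markers of plasmacytoid dendritic cells, the main makers of interferon-alpha, averaged 5.69 in WT replicate 3 and 5.48 in IL37TG replicate 3, against 5.20 to 5.33 elsewhere. In WT replicate 3 Siglech, Ccr9, Pacsin1 and Spib were highest of the WT group, and Cox6a2 was lowest. In IL37TG replicate 3 Cox6a2 and Spib were highest of their group, and Pacsin1 was lowest. Neutrophil markers averaged 5.06 in WT replicate 3 and 4.96 in IL37TG replicate 3, each the highest of its group (4.82 to 4.98 and 4.51 to 4.70 in the others). Within the WT group, replicate 3 was highest for S100a8, Ngp and Camp, and lowest for Csf3r and Mmp8. The endothelial mean was also highest of its group in both arrays numbered 3, at 9.85 and 9.96. The macrophage mean in WT replicate 3 was the lowest of its group. The part of these cells in the members' values was not tested.

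**Figure D4:**
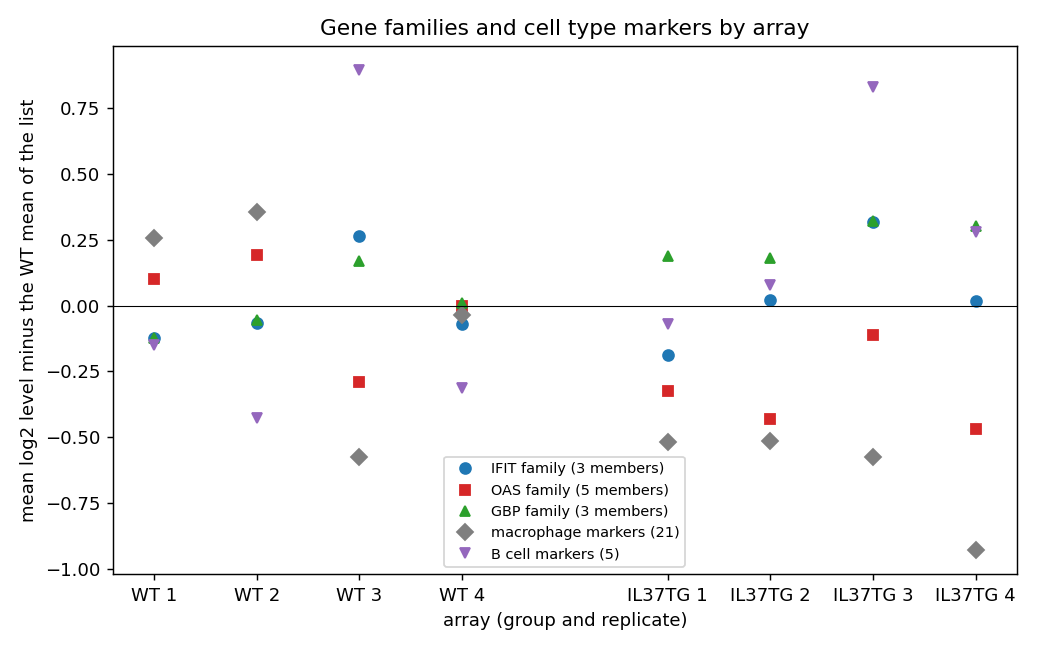
Mean log2 level, minus the WT mean, of the IFIT, OAS and GBP members and of macrophage and B cell markers (vertical axis) in each array (horizontal axis). The IFIT and B cell points are highest in WT 3 and IL37TG 3, while the macrophage and OAS points are lowest of the WT arrays in WT 3.

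The other genes of the pathway gave few calls as well. Of 18 measured interferon ligands and receptors none passed. Ifnar1 differed by -0.25 (SE 0.07, limma adjusted p = 0.0943) and Ifnar2 by -0.08 (SE 0.06), while Ifngr2 differed by -0.25 (SE 0.08, adjusted p = 0.115) and Ifngr1 by 0.12 (SE 0.06). The ligand probe sets were dim: Ifng averaged 4.84 in WT and 4.91 in IL37TG (difference 0.07, SE 0.13), Ifnb1 averaged 3.47 and 3.57 (0.10, SE 0.09) and Ifnab averaged 4.47 and 4.05 (-0.42, SE 0.14, adjusted p = 0.151). The means of Ifnb1 and Ifnab lie below 4.49 in both groups and were not shown to be above background.

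Of 13 measured kinases, STAT factors and inhibitors of the pathway none passed. Stat3 differed by -0.24 (SE 0.05, limma adjusted p = 0.0531), Ptpn6, a phosphatase of blood cells, by -0.51 (SE 0.16, adjusted p = 0.118) and Socs3, a feedback inhibitor of cytokine signalling, by -0.50 (SE 0.17, adjusted p = 0.142). Ptpn6 passed without WT replicate 3, at -0.65. That array was the lowest of its group for Ptpn6, so a wider difference had to follow.

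Of 22 measured genes that sense nucleic acids and induce interferon, 19 had a difference below 0 and Irf8 fell. Irf8, a factor that macrophages and dendritic cells need, had levels of 9.74, 9.81, 9.50 and 9.57 in WT replicates 1 to 4 and 9.29, 8.95, 9.05 and 8.79 in IL37TG replicates 1 to 4. The groups did not overlap (difference -0.63, SE 0.12, limma adjusted p = 0.0309). Its call was lost on removal of any array other than WT replicate 3 or IL37TG replicate 1 (adjusted p from 0.0584 to 0.0998), and the difference was -0.25 within row G. The adaptor Myd88 differed by -0.43 (SE 0.10, adjusted p = 0.0612) and the DNA sensor Aim2 by -0.47 (SE 0.13, adjusted p = 0.0863). Aim2 passed without WT replicate 3, at -0.55. That array was the lowest of its group for Aim2, so its removal could only widen the difference. The macrophage markers given above moved with this list too.

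Of 53 further measured interferon-stimulated genes, 22 had a difference above 0 and 31 below, and Isg20 rose. Isg20, an exonuclease that degrades RNA, had levels of 8.78, 9.01, 9.14 and 8.95 in WT replicates 1 to 4 and 9.44, 9.52, 9.64 and 9.74 in IL37TG replicates 1 to 4. The groups did not overlap (difference 0.62, SE 0.10, limma adjusted p = 0.0198). The call was lost without WT replicate 1, 2 or 4 or IL37TG replicate 2 (adjusted p from 0.0521 to 0.0737), and the difference was 0.40 within row G. Gbp5 differed by 0.34 (SE 0.08, limma adjusted p = 0.0616) and Plscr1, a membrane scramblase, by -0.35 (SE 0.09, adjusted p = 0.0714). Gbp5 passed without WT replicate 3 (limma adjusted p = 0.0395). That array was the highest of its group for Gbp5, so a wider difference had to follow.

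Among the marker lists, S100a8 (-1.51) and Csf3r (-0.46) fell among 7 neutrophil markers (limma, adjusted p at most 0.05). Of these 7, 6 had a difference below 0, S100a9 by only -0.08, and Retnlg differed by 0.88 (SE 0.42). S100a9, Mmp8, Ngp and Camp were dim, with means from 3.46 to 4.58, near or below 4.49. By the same threshold, Adipoq (0.30) and Slc2a4 (0.74) rose among 10 fat cell markers. Removing 1 array ended the call in 7 of 8 cases for Fcgr1 and Adipoq, 6 for Cx3cr1 and S100a8, 5 for Csf3r and 4 for Slc2a4. No marker passed among 10 of T cells, 9 of natural killer cells, 5 of plasmacytoid dendritic cells, 8 of endothelium, 7 of progenitors and fibroblasts, 6 of mesothelium and 4 of epididymis and testis.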

How the data were processed

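Total RNA from 8 fat samples was made into whole-transcript cDNA for expression arrays, per the labels' protocols. The authors deposited 1 log2 expression value per probe set and array. The submitters' processing notes name RMA, whose background correction and quantile step make arrays alike and compress dim probe sets. Its settings are not given in the sources used here.

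The platform annotation gave 21218 of 35556 probe sets a single gene symbol, 1881 several and 12457 none, and 21185 symbols were updated through Entrez identifiers (GRCm38.p6 gene table). The probe set with the highest mean was kept for each of 18820 genes. Levels of different probe sets were not compared. Groups (4 IL37TG, 4 WT, from the sample titles) were tested against each other by lmFit and eBayes of limma 3.58.1 (R 4.3.3, two-sided, no filter), checked on simulated data. Members and lists were chosen with earlier results of these data known. All members were accounted for. Levels by array were printed for those that passed, the 4 largest differences and 3 lowest p-values each way and the 3 brightest and dimmest, and for others after their values were seen. Of other lists, genes that passed, the 3 lowest p-values of each interferon list and the interferon receptors, Ifng and Ifnb1 were named. Same-numbered arrays were not taken as pairs, since their deviations correlated at 0.0566 to 0.102. Figures used matplotlib 3.10.9.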

Additional observations from a re-analysis of the deposited data

Results flagged for a closer look

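In 6 of 114 groups of 4 arrays examined (35 members and 22 named genes, each in both groups), a single array stood away from its group by Dixon's criterion. That is 5.26% of the groups, and about 1 in 20 would be picked by chance. Among the members, WT replicate 4 was low for Stat2 (8.22 against 8.36 to 8.39) and high for Cxcl10 (8.34 against 7.96 to 8.01). WT replicate 3 was high for Irf7 (7.92 against 7.43 to 7.50), and WT replicate 1 was low for Gbp2 (9.65 against 9.91 to 9.94). Among the other genes, WT replicate 2 was low for Plscr1 (8.17 against 8.25 to 8.25), and IL37TG replicate 1 was high for Csf3r (5.88 against 5.72 to 5.75).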

How the results depend on the processing

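Of 660 values of the members under alternatives, 616 kept their sign and side of the threshold. The genes called higher in IL37TG and the genes called lower in IL37TG numbered 741 and 554 among genes at or above the median gene, 724 and 539 with array weights, 857 and 680 at an adjusted p of 0.10, 10 and 60 with a block for plate row, 44 and 28 with the column, and 467 lower without both arrays numbered 3. With 1 array left out they ran from 50 (without WT replicate 4) to 520 (without WT replicate 3) higher and from 32 to 668 lower, without the same arrays. Members that fell numbered 2 among genes at or above the median gene and at 0.10 (Zbp1 and Cxcl10), 0 with the row or column block, 0 to 3 with 1 array left out and 4 without both arrays numbered 3. Members that rose numbered 0 to 1 with 1 array left out and 1 without both. The median over members was -0.17 with the row block and -0.14 to -0.04 with 1 array left out. The longer motif, with 2 more letters, was present for 11 of the 29 members with a window (37.9%), where 0.303% of all 27025 genes held it. With a replicate block, 40 genes rose and 53 fell, and 0 members fell (Zbp1 adjusted p = 0.0889). Same-numbered arrays correlated at 0.0566 to 0.102 in their deviations, and 2 of the 8 arrays (WT replicate 4 and IL37TG replicate 3) correlated best with their own number, so the numbers were not taken as pairs.

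Signs turned for small differences. With the row block they were -0.49 for Irf7, -0.0762 for Ifit2, -0.29 for Ifit3, -0.0094 for Mx2, 0.21 for Oas2, -0.48 for Rsad2 and -0.0351 for Xaf1. With array weights they were -0.0174 for Rsad2, 0.0375 for Cmpk2 and 0.0688 for Irgm1. Cmpk2 was at 0.0108 after a second quantile normalization and 0.0102 with the column block, Irgm1 at 0.0010 after centring and Irf1 at 0.0427 as the mean of its probe sets. Without both arrays numbered 3, Irf7 was at -0.0216 and Irgm1 at 0.12. With 1 array left out the ranges were -0.14 to 0.19 for Irf7, -0.24 to 0.0026 for Ifit1, -0.0840 to 0.22 for Rsad2, -0.0603 to 0.0420 for Cmpk2, -0.18 to 0.0610 for Usp18, -0.0761 to 0.0885 for Irgm1 and -0.0027 to 0.17 for Ifng. The causes were not tested. Dim probe sets, such as those of Isg15 and the interferon ligands, can understate a difference.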
